A study of Mus musculus with 17 samples.

Results

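The genes that cut, export, tail, destroy, load and use microRNAs were described across sorted mouse common myeloid progenitors (CMPs), which give rise to granulocytes, monocytes, red cells and platelets, from the fetal liver and the adult marrow. A list of 10 genes was taken by name from the 24412 genes of the count files: Drosha, Dgcr8, Xpo5, Dicer1, Tut4 (also named Zcchc11), Tut7 (Zcchc6), Dis3l2, Ago1, Ago2 and Tnrc6a. Labels placed the 17 libraries in 7 groups. Fetal liver gave libraries labelled Lin28b KO (n = 3), a single inducible Let-7 library and wild-type libraries (n = 3). Adult bone marrow gave Let-7b/c knock-out (n = 3), inducible LIN28B under vavcre (n = 2), inducible LIN28B without it (n = 2) and wild-type libraries (n = 3). The strain was C57BL/6J in every group except the Let-7b/c knock-out, which was albino black 6, so that genotype and strain cannot be told apart there. All 17 libraries, the wild-type ones too, carry the treatment label of LIN28B induction by doxycycline. The design text describes vavcre as limiting induction to blood-forming cells, and ages and numbers of animals are not stated in the labels.

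MicroRNAs are made in steps. DROSHA and its RNA-binding partner DGCR8 cut the primary transcript in the nucleus, XPO5 carries the hairpin to the cytoplasm, and DICER1 cuts off its loop. An Argonaute protein then holds the mature strand, and TNRC6A, a GW182 protein, connects Argonaute to the enzymes that shorten and decap the target message. LIN28 proteins bind the let-7 precursor and bring in TUT4 or TUT7, which add a tail of uridines, and the nuclease DIS3L2 destroys the tailed precursor. LIN28B is known as a protein of fetal blood progenitors that falls silent in adult ones.

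The RNAs on which this machinery acts are shown first, with sequences from RefSeq (GRCm38.p6), 5′ to 3′. Mature let-7b and let-7c are the family members named in the knock-out, and let-7g is a further member. Mature miR-451a is shown because, in mouse red cells, AGO2 cuts its precursor in place of DICER1. Capitals mark the seed, bases 2 to 8.
let-7b-5p: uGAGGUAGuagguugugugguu
let-7c-5p: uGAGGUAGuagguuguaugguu
let-7g-5p: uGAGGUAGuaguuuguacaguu
miR-451a: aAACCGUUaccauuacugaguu
Of 10 mature let-7 names in the table, 9 carry the seed of let-7b. The hairpins below differ in the GGAG motif that LIN28 proteins contact and that is known to attract the tailing enzymes, and capitals mark it where it lies between the arms. The let-7b hairpin (chr15:85707319-85707403, plus strand) and the let-7c-2 hairpin (chr15:85706603-85706697, plus strand) lack it there. The let-7c-1 hairpin (chr16:77599657-77599750, plus strand) and the let-7g hairpin (chr9:106178840-106178927, plus strand) hold it.
let-7b hairpin: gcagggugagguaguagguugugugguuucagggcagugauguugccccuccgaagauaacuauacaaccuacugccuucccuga
let-7c-2 hairpin: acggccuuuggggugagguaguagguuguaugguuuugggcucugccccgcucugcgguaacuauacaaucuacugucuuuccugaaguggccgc
let-7c-1 hairpin: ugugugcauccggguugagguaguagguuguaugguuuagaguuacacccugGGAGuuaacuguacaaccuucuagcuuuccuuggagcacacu
let-7g hairpin: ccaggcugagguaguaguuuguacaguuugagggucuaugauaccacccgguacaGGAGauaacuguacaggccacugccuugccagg
On the strand of the hairpin and between its arms, the letters GGAG were found in 9 of 11 let-7 hairpins and in 52 of 644 mouse hairpins with both arms listed (8.07%). A match is a description of the letters and not a measured binding site.

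Libraries held 14957111 to 28165554 counts on transcripts. The level of a gene is its CPM, that is, its count relative to the library's total after TMM factors, which align the bulk of genes between libraries. The Lin28b transcript averaged 104 ± 12.9 CPM in the libraries labelled Lin28b KO and 104 ± 17.6 CPM in wild-type fetal liver (SD, n = 3 each). These libraries are therefore called labelled Lin28b KO throughout, although a count over the whole transcript cannot show the loss of single exons. Of 11 myeloid progenitor markers, Kit, Cebpa and Runx1 had 0 counts in all 17 libraries. The counting set aside reads that fit several transcripts, so these counts cannot be read as absence of the messages. The granule enzyme gene Mpo stood at 3166 to 16909 CPM in every library. Whether the libraries of a group are from different mice is not stated in the labels, so a p-value reflects library-to-library spread, some of which may be technical. In sorted bulk samples, fewer cells of a type and less RNA per cell cannot be told apart. Adjusted p-values are two-sided values of edgeR's quasi-likelihood test with Benjamini-Hochberg adjustment for 13556 genes, and a gene is called where the value is under 0.05. Comparisons within a tissue share its wild-type libraries, so their results stand side by side and are not independent of each other.

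Of the 10 genes, 8 passed the filter on low counts and were tested, each with a single RefSeq transcript in the files. Drosha (chr15:12824804-12935291), the nuclear nuclease, had 0 counts in all 17 libraries, and Dis3l2 (chr1:86701924-87050097), the nuclease for tailed let-7, had 16 counts in total. Both have 2 transcripts in the files, and the counting set aside reads that fit more than 1 transcript, so their levels were not analysed here. Compared per kilobase of transcript, the wild-type levels of the precursor-handling genes lay above those of the effector genes. The precursor-handling genes stood high, at 41.4 (Xpo5), 24.3 (Dgcr8), 17.8 (Tut4), 17.2 (Tut7) and 15.5 (Dicer1) CPM per kb in wild-type fetal liver. The effector genes stood lower, at 7.83 (Tnrc6a), 4.41 (Ago1) and 3.68 (Ago2) CPM per kb. In wild-type bone marrow the same scale gave 27.8 for Xpo5, 24.6 for Tut7, 23.8 for Tut4, 22.8 for Dgcr8, 10.5 for Dicer1, 7.31 for Tnrc6a, 5.38 for Ago1 and 3.29 for Ago2. There Dicer1 stood nearer to Tnrc6a than to Dgcr8. The range of group means on the log2 CPM scale was 6.65 for Ago2, 2.91 for Tut7, 1.76 for Xpo5, 1.56 for Ago1, 1.23 for Tut4, 1.13 for Dgcr8, 0.75 for Tnrc6a and 0.60 for Dicer1.

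**Figure D1:**
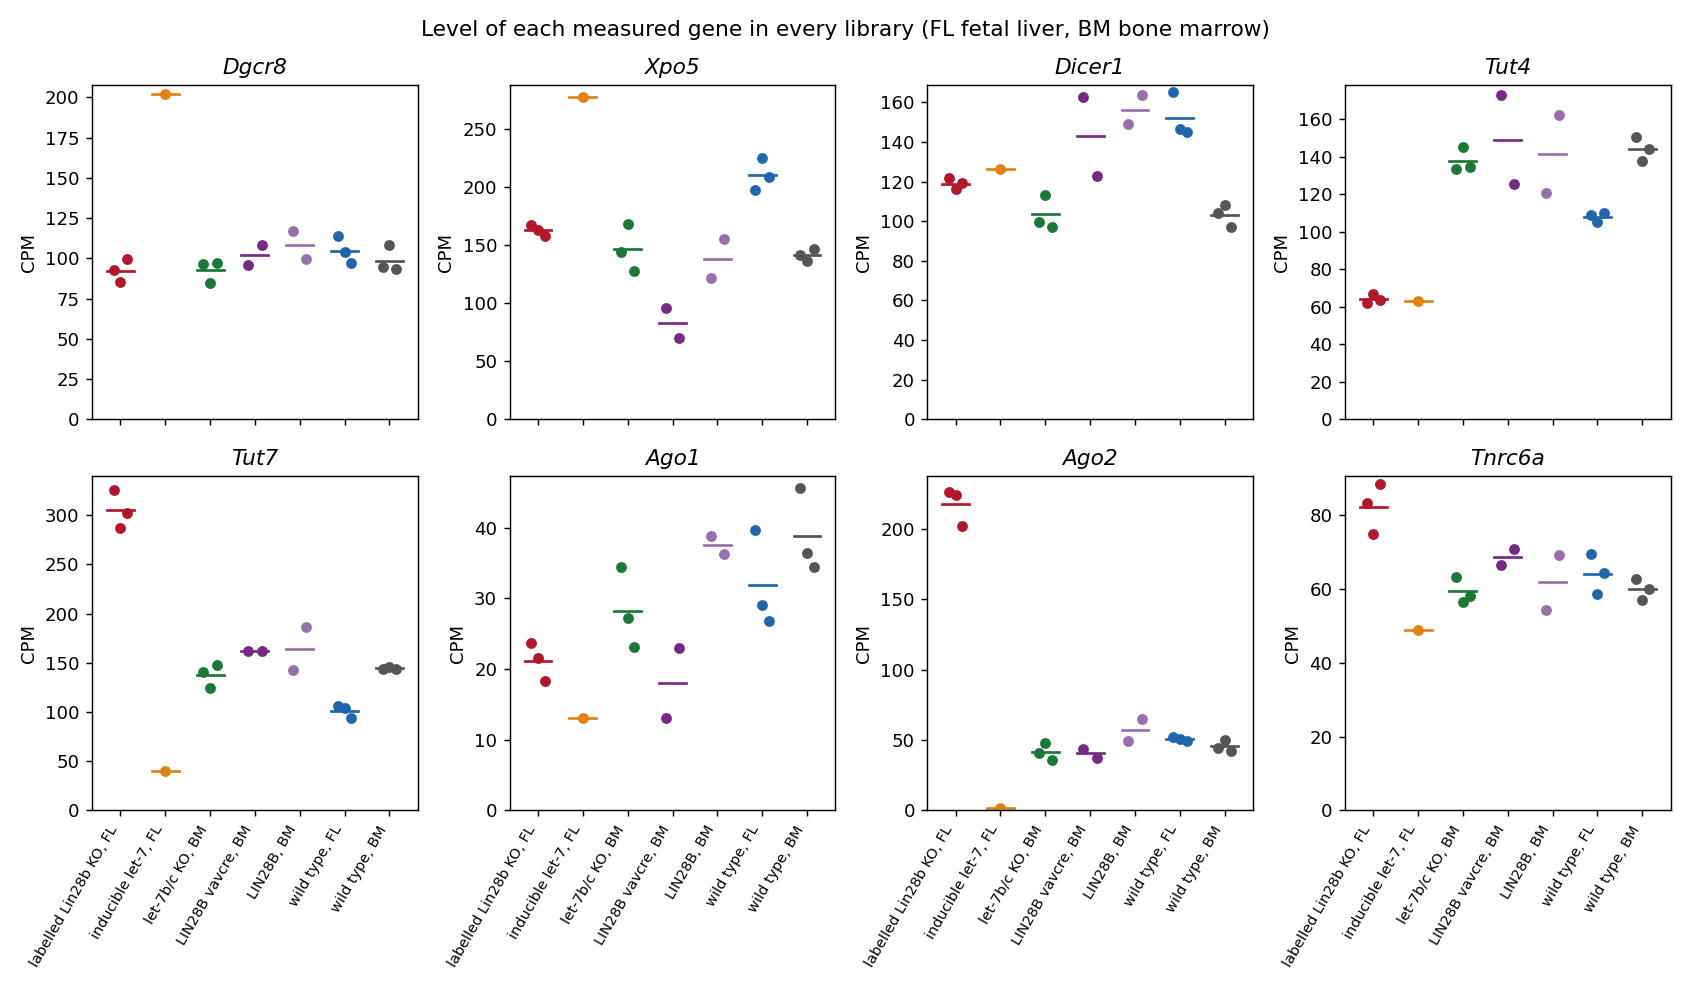
Level in CPM (vertical axes, linear, from 0) of each of the 8 measured genes in every library, by group, with points for libraries and a bar for the group mean. Ago2 stood at 202 to 226 CPM in the libraries labelled Lin28b KO, at 2.05 CPM in the inducible let-7 library and at 49.4 to 52.2 CPM in wild-type fetal liver.

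Wild-type fetal liver progenitors were set against wild-type adult marrow progenitors to describe the machinery across development. In fetal liver the genes for export and dicing were higher, and the genes of both let-7 tailing enzymes were lower. Of 8 tested genes 4 were called, 2 higher and 2 lower, against 27.1% of all 13556 genes called in this comparison. Dgcr8 and the effector genes Ago1, Ago2 and Tnrc6a were not called.

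Xpo5 (chr17:46202811-46243598) stood at 197, 225 and 209 CPM in wild-type fetal liver and at 142, 136 and 146 CPM in wild-type bone marrow. Dicer1 (chr12:104687740-104751968) stood at 165, 147 and 145 CPM in fetal liver and at 104, 108 and 97.1 CPM in marrow. All 3 fetal liver libraries lay above all 3 marrow libraries for both genes. Xpo5 was 1.49-fold higher (log2 0.57, SE 0.12, adjusted p = 0.00268) and Dicer1 1.48-fold higher (log2 0.56, SE 0.10, adjusted p = 0.000757).

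The 2 uridylyltransferase genes went the other way. Tut4 (chr4:108459410-108559415) stood at 109, 105 and 110.0 CPM in fetal liver and at 150.4, 138 and 144 CPM in marrow. Tut7 (chr13:59771876-59823169, overlapping Etohd2) stood at 106, 104 and 93.6 CPM in fetal liver and at 144, 146 and 144 CPM in marrow. For both genes every fetal liver library lay below every marrow library. Tut4 was 1.33-fold lower (log2 -0.42, SE 0.12, adjusted p = 0.0143), and Tut7 was 1.43-fold lower (log2 -0.51, SE 0.098, adjusted p = 0.00103). The call of Tut4 ended without wild-type fetal liver library 4 (adjusted p = 0.0532) or without library 2 of wild-type marrow (0.0668). The within-library count ratio of Tut7 to Tut4 was 0.938 in fetal liver (0.851 to 0.988) and 1.005 in marrow (0.956 to 1.06), and the ranges overlapped.

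For the genes not called, the 95% intervals of the log2 difference of fetal liver minus marrow were -0.13 to 0.30 for Dgcr8 (chr16:18253948-18289251, overlapping Trmt2a), -0.75 to 0.18 for Ago1 (chr4:126435012-126468707), -0.11 to 0.43 for Ago2 (chr15:73101625-73184947) and -0.14 to 0.33 for Tnrc6a (chr7:123031101-123195296). A 2-fold difference lay outside each of these intervals. Ago1, the lowest in counts, had the widest one.

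The partners of these genes were read from 5 lists. Of 6 tested export and dicing cofactors, 5 rose and 0 fell in fetal liver, with a median log2 difference of 0.43 against -0.08 over all genes. Among them Ran, the GTPase that loads cargo on exportins, was 1.57-fold higher (adjusted p = 4.03e-06). Tsnax and Tsn, the subunits of the translin complex, were 1.23-fold and 1.16-fold higher. Of 9 nuclear cofactors 4 rose, among them Erh, a partner of DGCR8 known from human cells (1.69-fold), and Ncbp1, a cap-binding protein (1.68-fold), and 1 fell, the splicing factor gene Srsf3 (1.61-fold lower). Of 13 genes for LIN28, tailing and decay, 4 rose and 1 fell. Lin28b itself stood at 104 against 0.359 CPM, the exonuclease genes Pnpt1 and Dis3 were 1.42-fold and 1.46-fold higher, and the gene that fell was Xrn1, named after its values were seen. Of 10 other Argonaute, GW182 and loading genes 4 rose and 3 fell. The chaperones used for Argonaute loading, Ptges3 (1.47-fold) and Hsp90ab1 (1.51-fold), were higher, while the GW182 gene Tnrc6c was 1.68-fold lower. Of 16 deadenylation and decapping genes 4 rose, with Cnot11 at 1.43-fold and Cnot10 at 1.40-fold, and 2 fell, with Pan3 1.45-fold lower. The summed level of 12 granulocyte markers also differed, at 5207 to 6788 CPM in fetal liver against 11005 to 13027 CPM in marrow. Of these markers 0 were called higher and 11 lower (median log2 -4.83). Of 8 lymphoid markers 4 were higher and 0 lower (median log2 1.91). Among 9 macrophage markers 1 was higher and 5 were lower (median log2 -1.45). Lower calls also numbered 4 of 8 progenitor markers and 3 of 9 stromal and endothelial markers, with 0 higher. The part of these cell types in these results was not tested.

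The libraries labelled Lin28b KO, whose Lin28b transcript level does not bear out that label, were set against wild-type fetal liver. They had far more Ago2 and Tut7 message and somewhat more Tnrc6a, and less Tut4, Dicer1, Xpo5 and Ago1. Of 8 tested genes 7 were called, 3 higher and 4 lower, against 43.8% of all genes called. The median log2 difference of the 8 was -0.27, against 0.00 over all genes. The members of 2 like pairs of genes, Tut7 and Tut4 and Ago2 and Ago1, thus moved in opposite directions. For Ago1 the call ended under several other settings, given below.

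Ago2, the Argonaute that can cut RNA, stood at 226, 224 and 202 CPM in the libraries labelled Lin28b KO and at 52.2, 50.9 and 49.4 CPM in wild-type fetal liver. Every labelled KO library exceeded every wild-type one several times over. The difference was 4.27-fold (log2 2.10, SE 0.13, adjusted p = 4.46e-09). Ago1 stood at 23.7, 21.5 and 18.4 CPM in the labelled KO and at 39.8, 29.0 and 26.8 CPM in wild-type fetal liver. It was lower (log2 -0.59, SE 0.22, adjusted p = 0.0406), and this call ended with RLE scaling (adjusted p = 0.0735), with DESeq2 (adjusted p = 0.0579), with no filter on low counts (adjusted p = 0.0533) and among genes with 1 transcript (adjusted p = 0.0509). It also ended without labelled KO library 6 (adjusted p = 0.0846) or 8 (0.141) or without wild-type library 1 (0.201) or 4 (0.0537). The count ratio of Ago2 to Ago1 within a library was 10.3 in the labelled KO (9.53 to 11.0) and 1.64 in wild-type fetal liver (1.31 to 1.84).

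Tut7 stood at 325, 287 and 302 CPM in the libraries labelled Lin28b KO and at 106, 104 and 93.6 CPM in wild-type fetal liver, a 3.02-fold rise (log2 1.59, SE 0.099, adjusted p = 4.58e-09). Tut4 stood at 62.0, 66.7 and 63.4 CPM in the labelled KO and at 109, 105 and 110.0 CPM in wild-type fetal liver, 1.68-fold lower (log2 -0.75, SE 0.12, adjusted p = 8.87e-05). The 2 tailing enzymes had similar counts in wild-type libraries, while in every labelled KO library the Tut7 count, not scaled by length, was several times that of Tut4. The count ratio of Tut7 to Tut4 was 4.77 in the labelled KO (4.30 to 5.25) and 0.938 in wild-type fetal liver (0.851 to 0.988).

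The remaining changes were smaller. Dicer1 stood at 122, 116 and 119 CPM in the labelled KO and at 165, 147 and 145 CPM in wild-type fetal liver (1.28-fold lower, adjusted p = 0.0103, or 0.0563 without wild-type library 1). Xpo5 stood at 167, 163 and 157 CPM in the labelled KO and at 197, 225 and 209 CPM in wild-type fetal liver (1.29-fold lower, adjusted p = 0.0238). Neither gene overlapped between the groups. The Xpo5 call ended with RLE scaling (adjusted p = 0.061), without labelled KO library 6 (0.0578) or 8 (0.0746) and without wild-type library 4 (0.091) or 5 (0.0521). Tnrc6a stood at 83.3, 74.9 and 88.5 CPM in the labelled KO and at 69.4, 58.5 and 64.2 CPM in wild-type fetal liver (1.28-fold higher, adjusted p = 0.0144). That call ended when library totals were used without TMM factors (log2 0.16, adjusted p = 0.258), without labelled KO library 8 (0.0608) or without wild-type library 4 (0.0711). Dgcr8 averaged 92.4 ± 6.93 CPM in the labelled KO and 105 ± 8.28 CPM in wild-type fetal liver and was not called (adjusted p = 0.163, interval of the log2 difference -0.40 to 0.03), except with library totals (log2 -0.38, adjusted p = 0.0128).

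**Figure D2:**
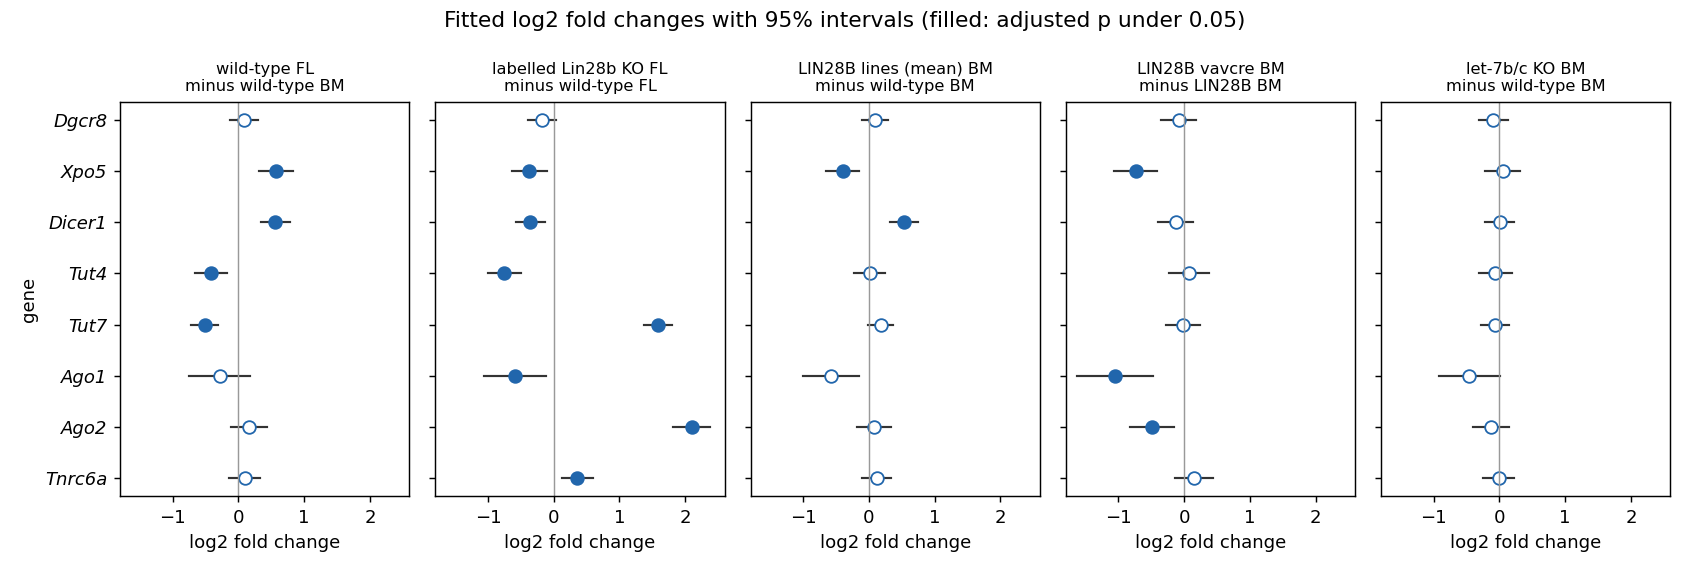
Fitted log2 fold change (horizontal axis) of the 8 tested genes (rows) in 5 comparisons (panels), with bars for 95% intervals and filled points for adjusted p under 0.05. Ago2 and Tut7 lay at 2.10 and 1.59 in the libraries labelled Lin28b KO minus wild-type fetal liver, and no point was filled in the let-7b/c knock-out panel.

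Markers of other cell types moved with these changes. The summed level of the 13 erythroid markers with counts was 31018 to 36729 CPM in the libraries labelled Lin28b KO and 382 to 553 CPM in wild-type fetal liver, with 13 of 13 tested higher. The most abundant were Slc4a1, the red cell anion exchanger, at 11863 to 14080.5 CPM against 10.3 to 77.9 CPM, Slc25a37, the mitochondrial iron importer, at 5307 to 6274 CPM against 42.6 to 68.3 CPM, and Fech, the enzyme that inserts iron into heme, at 5048 to 5884 CPM against 92.7 to 126 CPM. Hepatocyte markers summed to 499 to 1603 CPM against 123 to 132 CPM, with 11 of 12 higher and 1 lower. Macrophage markers summed to 574 to 620 CPM against 147 to 171 CPM, with 8 of 9 higher, and stromal and endothelial markers to 102 to 187 CPM against 6.02 to 8.62 CPM, with 7 of 9 higher. Granulocyte markers summed to 5753 to 11102 CPM against 5207 to 6788 CPM, with 10 of 12 higher and 0 lower (median log2 6.84). Progenitor markers summed to 3385 to 5882 CPM against 5693 to 7216 CPM, with 1 of 8 higher and 6 lower (median log2 -1.17), and 4 of 8 lymphoid markers were lower (median log2 -2.09). The part of these cell types in the Ago2, Tut7 and other results was not tested. Across the 4 marrow groups and wild-type fetal liver, where the erythroid sum stayed between 373 and 893 CPM, Ago2 lay between 35.8 and 64.6 CPM.

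**Figure D3:**
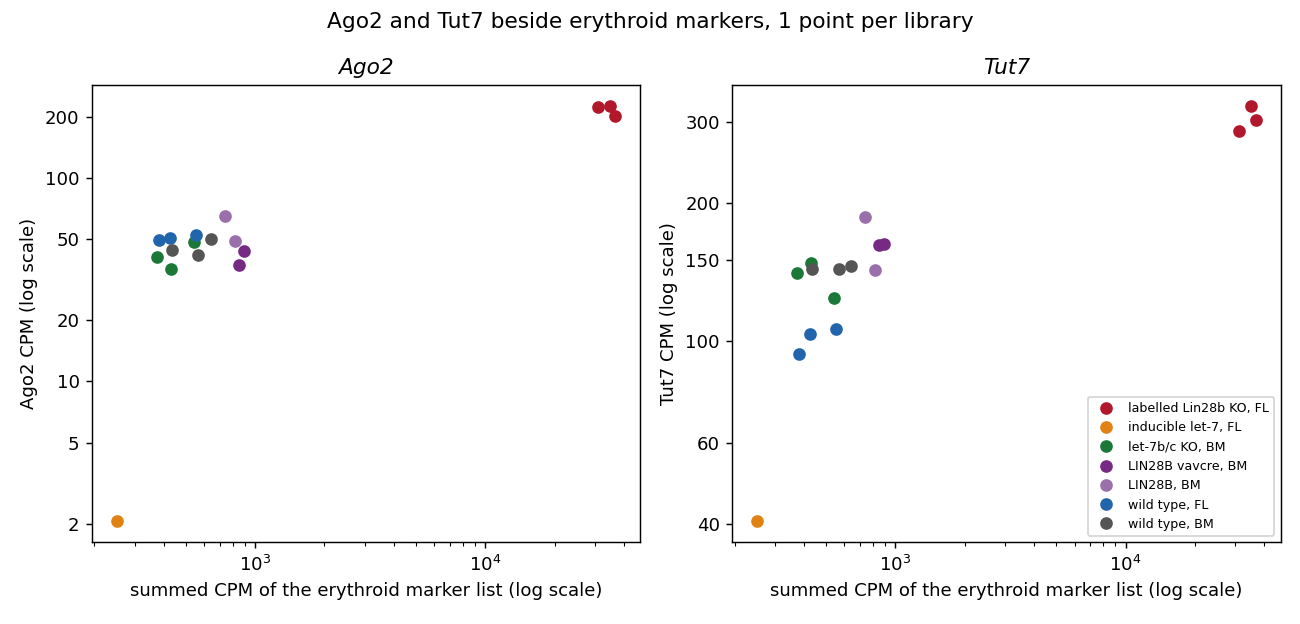
Ago2 (left) and Tut7 (right) in CPM against the summed CPM of the erythroid marker list, all axes logarithmic, with a point for each of the 17 libraries. The 3 libraries labelled Lin28b KO lie apart at 31018 to 36729 CPM of erythroid markers and hold the highest levels of both genes, and the inducible let-7 library, at 251 CPM, holds the lowest.

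Partner genes in the labelled KO moved both ways, and 24 of all 54 tested were called, a share near the 43.8% over all genes. Of 9 nuclear cofactors 3 rose and 3 fell, with Erh (1.33-fold lower) and Ncbp1 (1.30-fold lower) below wild-type fetal liver and the let-7 precursor-binding protein gene Khsrp 1.21-fold above it. Of 6 export and dicing cofactors 0 rose and 2 fell: Prkra, which encodes a DICER1 partner, was 2.12-fold lower (22.5 against 47.7 CPM, adjusted p = 8.81e-06), and Tsnax was 1.14-fold lower. Of 13 genes for LIN28, tailing and decay 3 rose and 3 fell. The nuclear exonuclease gene Xrn2 was 1.35-fold lower, its cytoplasmic relative Xrn1 1.70-fold higher and Tut1, the uridylyltransferase of U6 RNA, 1.33-fold lower. Of 10 other Argonaute, GW182 and loading genes 2 rose and 4 fell, with Hsp90ab1 1.46-fold and Ptges3 1.39-fold lower and Tnrc6b 3.56-fold higher at 7.22 against 2.02 CPM. Of 16 deadenylation and decapping genes 1 rose and 3 fell, namely Cnot8 (1.26-fold), Cnot11 (1.28-fold) and the decapping activator Patl1 (1.63-fold).

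Against adult marrow the libraries labelled Lin28b KO had 5 of 8 genes called, 3 higher and 2 lower, where 47.8% of all genes were called. Ago2 was 4.78-fold higher, Tut7 2.11-fold higher and Tnrc6a 1.37-fold higher, and Tut4 was 2.25-fold and Ago1 1.83-fold lower (adjusted p = 1.71e-09, 2.39e-07, 0.00271, 7.92e-07 and 0.00383). This comparison shares the labelled KO libraries with the one before, so it is not separate support for it. Dicer1 averaged 119 ± 2.70 CPM in the labelled KO and 103 ± 5.69 CPM in marrow and was not called by edgeR (adjusted p = 0.112), but it was with DESeq2 (0.0274), with RLE scaling (0.0406) and in a fit of the compared groups alone (0.0357). That last fit also called Xpo5 (adjusted p = 0.0269). Dgcr8 was called lower only with library totals (adjusted p = 0.0086). The call of Tnrc6a ended with library totals (adjusted p = 0.278). Prkra was 2.51-fold lower, and Ago4 stood at 2.78 against 16.2 CPM (5.82-fold lower).

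The inducible let-7 library was a single one, so its differences from wild-type fetal liver have no replicate check and no p-value. It had little Ago2 message, less Tut7 and Ago1, and more Dgcr8 and Xpo5. A gene was counted where it was at least 2-fold from the wild-type mean and outside the wild-type range. Of 8 genes 0 were counted higher and 3 lower, against 41.3% of all genes, 1363 higher and 4242 lower.

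Ago2 had 53 counts, or 2.05 CPM (95% Poisson interval 1.54 to 2.69, counting error only, since reads carried no molecular identifiers), against 49.4 to 52.2 CPM in wild-type fetal liver. This was 24.7-fold below the wild-type mean. Tut7 had 40.5 CPM (38.1 to 43.0) against 93.6 to 106 CPM, 2.50-fold lower, and Ago1 had 13.02 CPM (11.7 to 14.5) against 26.8 to 39.8 CPM, 2.45-fold lower. The library was below all others of the series for each of these 3 genes, although the Ago1 level of 13.1 CPM in a LIN28B vavcre library lay inside its interval. The count ratio of Ago2 to Ago1 was 0.158, against 1.31 to 1.84 in wild-type fetal liver.

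Dgcr8 and Xpo5 lay above wild-type fetal liver, while Dicer1, which like them acts before Argonaute loading, lay below it. Dgcr8 stood at 202 CPM (196 to 207) against 97.1 to 114 CPM in wild-type fetal liver, 1.93-fold higher, and Xpo5 at 277 CPM (271 to 284) against 197 to 225 CPM, 1.32-fold higher. Tut4 stood at 62.8 CPM against 105 to 110.0 CPM (1.72-fold lower), Dicer1 at 126 CPM against 145 to 165 CPM and Tnrc6a at 48.8 CPM against 58.5 to 69.4 CPM. All 5 lay outside the wild-type range and within 2-fold of its mean. The Lin28b transcript stood at 91.2 CPM in this library.

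This library differed as a whole from wild-type fetal liver. The median log2 difference over all tested genes was -0.33. It varied with transcript length, with medians of 0.00 for 1113 genes under 1 kb, -0.40 for 3074 genes of 3 to 5 kb and -0.91 for 531 genes over 8 kb. In the libraries labelled Lin28b KO the same medians were 0.18, -0.08 and 0.02. The transcripts of Ago2, Dicer1, Tnrc6a, Ago1, Tut4, Tut7, Xpo5 and Dgcr8 are 13.8, 9.85, 8.18, 7.23, 6.05, 5.87, 5.08 and 4.32 kb long, and Ago2, the longest, was also the furthest below wild type. Dicer1, the next in length, had a log2 difference of -0.27. Granulocyte markers summed to 18906 CPM in this library against 5207 to 6788 CPM in wild-type fetal liver, of which Mpo gave 16859 CPM. Of the 12 granulocyte markers 4 were counted higher and 4 lower, with a median log2 difference of -0.94. Lymphoid markers summed to 1.16 CPM against 89.6 to 125 CPM, with 7 of 8 counted lower. The part of length or of cell types in these values was not tested. Among the partner genes, Ago4 (0.310 against 5.27 CPM) and Ago3 (3.91 against 9.81 CPM) were also counted lower, as were Xpo1, Xrn1 and Parn. Of all 54 tested partner genes 1 was counted higher and 12 lower, against 41.3% of all genes, 1363 higher and 4242 lower. The gene counted higher was Cnot2, at 3.06 against 0.810 CPM. It had few counts, 79 in this library and 12 to 23 in those of wild-type fetal liver.

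Induction of LIN28B in adult marrow was set against wild-type marrow, first as the mean of the lines with and without vavcre and then for each line. In both lines Dicer1, whose message is a known let-7 target in human cells, was higher. Xpo5, Ago1 and Ago2 differed between the lines, with lower levels under vavcre. The tailing enzymes Tut4 and Tut7 were not called in any of these comparisons.

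Dicer1 stood at 163 and 123 CPM with vavcre, at 149 and 163 CPM without it and at 104, 108 and 97.1 CPM in wild-type marrow. All 4 LIN28B libraries lay above all 3 wild-type libraries. Erythroid markers were also higher in all 4, with sums of 738 to 893 CPM against 434 to 642 CPM in wild-type marrow and 3 of 13 called higher, while 6 of 9 macrophage markers were called lower, and their part in the results of these lines was not tested. The mean of the lines was 1.45-fold higher (log2 0.53, SE 0.097, adjusted p = 0.00252). For this mean 2 of 8 genes were called, 1 higher and 1 lower, against 14.4% of all genes. The line without vavcre had 1 of 8 called, Dicer1 at 1.51-fold (adjusted p = 0.021), against 0.804% of all genes, and that call ended when any single library of the comparison was left out (adjusted p from 0.0535 to 0.252). The line with vavcre had 3 of 8 called against 26.8% of all genes, with Dicer1 1.38-fold higher (adjusted p = 0.00645), a call that ended without vavcre library 4 (0.117) or in a fit of the compared groups alone (0.0631).

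Xpo5 stood at 96.1 and 70.0 CPM with vavcre, at 122 and 155 CPM without it and at 142, 136 and 146 CPM in wild-type marrow. The vavcre libraries held the lowest 2 levels of the series. The fall was 1.70-fold with vavcre (log2 -0.77, SE 0.14, adjusted p = 0.000993), while the line without vavcre was not called (log2 -0.03, interval -0.33 to 0.26). The called fall of the mean of the lines (1.32-fold, adjusted p = 0.0312) ended in a fit of the compared groups alone (0.098), without vavcre library 6 (0.077), without library 1 of the line without vavcre (0.135) and without wild-type library 2 (0.098), 5 (0.053) or 6 (0.112). The count ratio of Xpo5 to Dicer1 was 0.580 with vavcre (0.570 to 0.591), 0.882 without it (0.817 to 0.948) and 1.37 in wild-type marrow (1.26 to 1.505), and the ranges did not overlap.

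Ago1 stood at 13.1 and 23.0 CPM with vavcre, at 38.8 and 36.3 CPM without it and at 45.7, 36.5 and 34.4 CPM in wild-type marrow. With vavcre it was 2.15-fold below wild type (log2 -1.11, SE 0.25, adjusted p = 0.00451), a call that ended without vavcre library 4 (0.0512). For the mean of the lines Ago1 was not called by edgeR (log2 -0.58, adjusted p = 0.0693) but was by DESeq2 (0.0419) and without vavcre library 6 (0.00912). Ago2 stood at 43.5 and 37.4 CPM with vavcre, at 49.0 and 64.6 CPM without it and at 44.3, 50.1 and 41.9 CPM in wild-type marrow, where neither line was called.

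The lines themselves were compared in the same fit, vavcre minus no vavcre. Of 8 genes 3 were called and all 3 were lower, against 20.6% of all genes. Xpo5 was 1.67-fold lower (log2 -0.74, SE 0.15, adjusted p = 0.00339), Ago1 2.08-fold lower (log2 -1.06, SE 0.27, adjusted p = 0.012) and Ago2 1.41-fold lower (log2 -0.49, SE 0.16, adjusted p = 0.0364). With 2 libraries a line, these calls lean on the spread of the other groups: in a fit of the 4 libraries alone none was called (adjusted p = 0.117, 0.132 and 0.23), although DESeq2 on all libraries called 3 genes. Without library 5 of the line without vavcre none was called (0.0628, 0.0528 and 0.363). The Ago1 call also ended without library 1 of that line (0.0587) or vavcre library 4 (0.0856), and the Ago2 call without vavcre library 6 (0.147). Dicer1 did not pass between the lines (log2 -0.13, interval -0.40 to 0.14). Granulocyte markers summed to 9758 to 14558 CPM with vavcre and 6215 to 7195 CPM without it, and macrophage markers to 96.5 to 118 CPM with it and 43.6 to 57.4 CPM without it. Wild-type marrow had 11005 to 13027 CPM and 137 to 164 CPM of these lists. Called higher with vavcre were 2 of 12 granulocyte and 2 of 9 macrophage markers, with 0 lower. Of 13 erythroid markers 2 were called higher and 3 lower, and of 8 progenitor markers 1 was called higher and 1 lower. The part of these cell types in the difference between the lines was not tested.

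For Dgcr8, Tut4, Tut7 and Tnrc6a the mean of the LIN28B lines minus wild-type marrow had log2 intervals of -0.11 to 0.30, -0.22 to 0.24, -0.02 to 0.37 and -0.10 to 0.34. By line, 16 of 54 partner genes were called with vavcre and 1, Lin28b, without it (6 at an unadjusted p under 0.05, and 2 by DESeq2), against 26.8% and 0.804% of all genes. Of the partner lists in the mean of both lines, 1 of 9 nuclear cofactors rose (Erh, 1.38-fold) and 0 fell, and 1 of 6 export and dicing cofactors rose and 1 fell. Those that moved encode DICER1 partners, with Tarbp2 1.77-fold higher at 8.08 against 4.55 CPM and Prkra 1.63-fold lower at 36.5 against 56.3 CPM (adjusted p = 0.026 and 0.00209). Of 13 genes for LIN28, tailing and decay 1 rose, Lin28b at 2.75 against 0.359 CPM, where the files hold mouse transcripts only. Erh stood at 883 CPM with vavcre, 525 CPM without it and 493 CPM in wild-type marrow, and Prkra at 24.8, 48.3 and 56.3 CPM in the same order, so that the means of both lines rest largely on the vavcre line for these genes. Of 10 other Argonaute, GW182 and loading genes 1 rose, Ptges3 (1.26-fold). Of 16 deadenylation and decapping genes 4 rose and 0 fell, among them the CCR4-NOT subunits Cnot9 (1.43-fold), Cnot11 (1.29-fold) and Cnot8 (1.195-fold).

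The mean of the LIN28B lines was then set against wild-type fetal liver, with 3 of 8 genes called, 2 higher and 1 lower, where 32.6% of all genes were called. Dicer1 averaged 149 CPM over the lines and 152 CPM in wild-type fetal liver (log2 -0.03, interval -0.23 to 0.17, adjusted p = 0.871). Xpo5 was 1.96-fold lower (adjusted p = 1.58e-05), Tut7 1.62-fold higher (adjusted p = 4.4e-05) and Tut4 1.35-fold higher (adjusted p = 0.00713, or 0.0531 in a fit of the compared groups alone). Ago1 was called lower only without vavcre library 6 (adjusted p = 0.039). In this comparison 10 of 12 granulocyte markers were higher (median log2 5.63), 5 of 13 erythroid markers were higher (median log2 0.91) and 4 of 8 lymphoid markers were lower (median log2 -1.60), and their part was not tested. It shares its LIN28B libraries with the comparisons against marrow.

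Loss of let-7b/c in adult marrow was set against wild-type marrow. None of the 8 tested genes was called by edgeR, 0 had an unadjusted p under 0.05, and DESeq2 called 0, against 2.25% of all genes called. The 95% intervals of the log2 difference were -0.31 to 0.12 for Dgcr8, -0.21 to 0.31 for Xpo5, -0.21 to 0.22 for Dicer1, -0.31 to 0.18 for Tut4 and -0.28 to 0.14 for Tut7. For the effectors they were -0.40 to 0.15 for Ago2, -0.25 to 0.22 for Tnrc6a and -0.93 to 0.00 for Ago1. A 1.5-fold difference lay outside the intervals of all 8 genes except Ago1, which stood at 34.4, 27.2 and 23.1 CPM in the knock-out and at 45.7, 36.5 and 34.4 CPM in wild-type marrow (log2 -0.46, SE 0.22, adjusted p = 0.35). The highest knock-out library and the lowest wild-type library both stood at 34.4 CPM. Of 12 granulocyte markers 1 was called higher and 0 lower (median log2 -0.22), although their sum was 15707 to 20267 CPM in the knock-out and 11005 to 13027 CPM in wild-type marrow, most of it Mpo. Of 9 macrophage markers 1 was called higher and 1 lower (median log2 -1.36), and Csf1r gave 206 to 334 CPM of a sum of 236 to 366 CPM in the knock-out, against 91.5 to 113 CPM of 137 to 164 CPM in wild-type marrow. Called lower were also 2 of 13 erythroid, 1 of 12 hepatocyte and 1 of 8 progenitor markers, with 0 higher in these lists. The part of these cell types was not tested. Among 54 tested partner genes edgeR called 0, 8 had an unadjusted p under 0.05 and DESeq2 called 2.

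The let-7b/c knock-out and the LIN28B lines were also compared directly. Of 8 genes 2 were called, 1 higher and 1 lower, against 18.5% of all genes. Dicer1 stood at 99.7, 113 and 97.3 CPM in the knock-out, below all 4 LIN28B libraries at 123 to 163 CPM (log2 -0.53, SE 0.097, adjusted p = 0.00168). Xpo5 stood at 144, 168 and 127 CPM in the knock-out and at 70.0 to 155 CPM in the LIN28B lines, with overlap (log2 0.45, SE 0.12, adjusted p = 0.0142). The Xpo5 call ended in a fit of the compared groups alone (adjusted p = 0.108), without knock-out library 2 (0.0706) or without library 1 of the line without vavcre (0.0563). Tut7 was called lower only with library totals (adjusted p = 0.0371) or without library 1 of the line without vavcre (0.0244). Of 12 granulocyte markers 4 were called higher and 1 lower, and of 8 progenitor markers 3 higher and 1 lower. Higher calls numbered 3 of 9 macrophage and 3 of 9 stromal and endothelial markers, and lower calls 3 of 13 erythroid and 2 of 8 lymphoid markers. The part of these cell types was not tested. The strain label differs too, so genotype and strain cannot be told apart here.

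**Figure D4:**
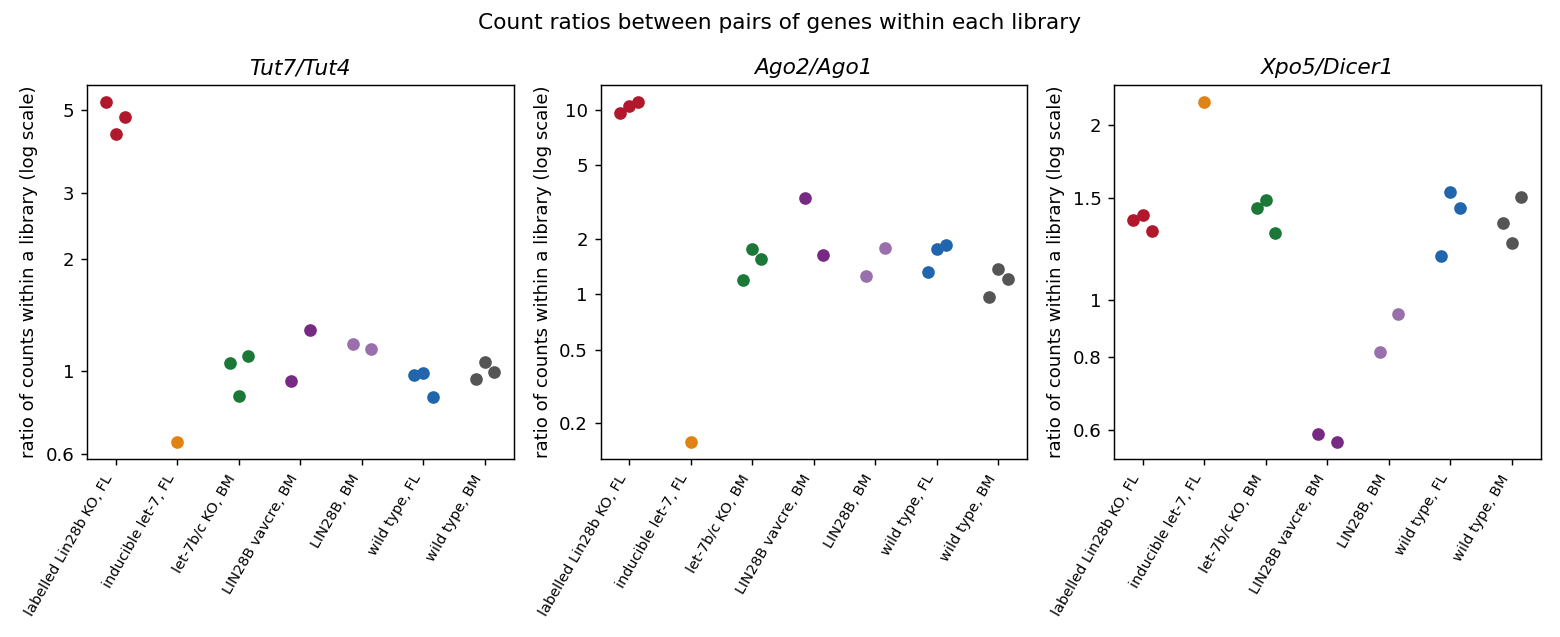
Ratio of counts between pairs of genes within each library (logarithmic vertical axes), by group: Tut7 to Tut4, Ago2 to Ago1 and Xpo5 to Dicer1. The labelled Lin28b KO libraries lie at 4.30 to 5.25 and 9.53 to 11.0 for the first 2 ratios, and the LIN28B vavcre libraries at 0.570 to 0.591 for the third.

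In the order of group means, most neighbours overlapped in their libraries. Dgcr8 had a single step without overlap, between the inducible let-7 library and the other groups, which lay between 84.4 and 117 CPM. Dicer1 had the smallest range of group means of the 8 genes, and its groups followed each other closely. The LIN28B lines, wild-type fetal liver and the inducible let-7 library lay at 123 to 165 CPM. The labelled KO lay at 116 to 122 CPM, and the let-7b/c knock-out and wild-type marrow at 97.1 to 113 CPM. Vavcre library 6 (122.8 CPM) and labelled KO library 3 (121.6 CPM) were nearly level. Tut4 had its highest means in the 4 marrow groups (120.4 to 173 CPM), then wild-type fetal liver (105 to 110.0 CPM), then the labelled KO and the inducible let-7 library (62.0 to 66.7 CPM). Tnrc6a stood apart only in the labelled KO (74.9 to 88.5 CPM) and the inducible let-7 library (48.8 CPM), with the other groups at 54.3 to 70.9 CPM.

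For the 3 genes with the widest range of group means, the genes most like them were read from Pearson's r of log2 CPM over the 17 libraries, among 6952 genes with a mean of at least 10 CPM. The libraries share groups and depth differences, so r is a description. For Ago2 they were Ankrd9 (r = 0.99), Ppm1l (r = 0.98) and Abcb6 (r = 0.98), the last a porphyrin transporter of red cell precursors. For Tut7 they were Wipi1 (r = 0.98), a protein of autophagy, Pld3 (r = 0.97) and Abtb1 (r = 0.97). For Xpo5 they were Fh1, the fumarase gene (r = 0.95), and the ribosome biogenesis genes Nop14 (r = 0.94) and Pa2g4 (r = 0.94).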

How the data were processed

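Total RNA of sorted progenitors was converted with SMARTer low-input chemistry, per the labels' protocols. Reads were trimmed, aligned and counted with cutadapt, TopHat2 and HTSeq on mm10, per the submitters' processing notes, with no versions or strand setting stated there. The authors deposited raw read counts per RefSeq transcript, 33818 per library, which were summed here over 24412 genes named from RefSeq GRCm38.p6 (33435 transcripts) or GENCODE vM21 (191). Another 192 had no name. Ambiguous reads (23.8% to 29.8% of those placed uniquely) and reads off any transcript (8.87% to 19.3%) were left out, which lowers genes with several transcripts. Comparisons used edgeR 4.0.16 (R 4.3.3, TMM, filterByExpr, 13556 genes, 7 group means, 10 residual degrees of freedom, Benjamini-Hochberg), checked on simulated data. DESeq2 1.42.0 and other scalings, filters and samples were alternatives. SEs and 95% intervals come from the fit. CPM divides counts by the TMM-scaled library total. Log2 CPM used a prior count of 2. Transcript lengths came from GENCODE. Figures used matplotlib 3.10.9. Members and lists were chosen with earlier results of these data known. Partner genes were named by smallest p, up to 3 called per list, markers by abundance and the genes most like a member by r. Partner genes named in the inducible let-7 library were chosen after their values were seen.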

Additional observations from a re-analysis of the deposited data

Results flagged for a closer look

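The levels of 3 genes differed between the LIN28B lines with and without vavcre, by edgeR's test of the difference itself. The log2 difference, vavcre minus no vavcre, was -0.74 for Xpo5 (adjusted p = 0.00339), -1.06 for Ago1 (adjusted p = 0.012) and -0.49 for Ago2 (adjusted p = 0.0364). In a fit of the 4 libraries alone none of the 3 was called (adjusted p = 0.117, 0.132 and 0.23), and without library 5 of the line without vavcre none was called. Against wild-type marrow, Ago2 was not called in either line. Between the lines, 2 of 12 granulocyte and 2 of 9 macrophage markers were called higher with vavcre and 0 lower, against 20.6% of all genes called. Of 13 erythroid markers 2 were called higher and 3 lower, and of 8 progenitor markers 1 was called higher and 1 lower. Their part was not tested. Both vavcre libraries lay below both libraries without vavcre for each of the 3 genes. The same libraries gave the calls, so this is no separate support. No group has more than 3 libraries, so single libraries were not tested for standing apart from their group.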

How the results depend on the processing

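Of the log2 differences of single genes recomputed under other settings, 908 kept their side of the threshold, 49 lost a call and 11 gained one. Of those called in the main or the other setting, 0 reversed direction. The direction of differences called in neither setting was not compared. The number of genes called changed by over 1.5 times in a fit of the compared groups alone for the mean of the LIN28B lines against wild-type marrow (1 in place of 2), for vavcre against no vavcre (0 in place of 3) and for the let-7b/c knock-out against the LIN28B lines (1 in place of 2). With each library left out in turn, it ranged from 4 to 7 in the labelled Lin28b KO against wild-type fetal liver, with 4 without labelled KO library 8 or wild-type library 4. It ranged from 1 to 2 for the mean of the LIN28B lines against wild-type marrow, was 0 in every case for the line without vavcre, ranged from 1 to 3 for the line with vavcre (1 without vavcre library 4), from 0 to 2 for vavcre against no vavcre (0 without library 5 of the other line) and from 1 to 2 for the let-7b/c knock-out against the LIN28B lines. Calls over all genes numbered 1131 in place of 1958, 422 in place of 2798 and 999 in place of 2504 in the fits of compared groups alone named above, and 2006 in place of 3632 for the line with vavcre. The line without vavcre had 403 with DESeq2, 191 with no filter and 268 in the fit of compared groups in place of 109, and the let-7b/c knock-out against wild-type marrow had 780 with DESeq2 in place of 305. Library totals without TMM factors gave a median log2 of all genes of -0.19 in place of 0.00 in the labelled KO against wild-type fetal liver, of -0.33 in place of -0.02 in it against marrow and of -0.19 in place of -0.08 in wild-type fetal liver against marrow. The shares of calls that were higher were then 35.3% in place of 47.5%, 32.1% in place of 49.4% and 38.1% in place of 51.3%, and 59.8% in place of 45.9% in the LIN28B lines against wild-type fetal liver. Group levels moved in 26 cases under RLE scaling or library totals. A move was over 1 SD or, for the single inducible let-7 library, outside its 95% Poisson interval. The causes were not tested. The LIN28B lines share 2 library numbers of their titles with wild-type marrow and 3 with wild-type fetal liver, and no other groups compared share over 1. Libraries of the same number had a Pearson's r of deviations from the group means of -0.042 to 0.03 over genes, which are not independent. With 2 libraries in a line their deviations mirror each other, so these values cannot decide whether the numbers pair libraries. With the number as a replicate block, added after seeing the data, 0 genes in place of 2 were called for the lines against wild-type marrow (274 in place of 1958 of all genes) and 3 in place of 3 against wild-type fetal liver. Ago1, with the fewest counts, had the widest intervals, and Drosha and Dis3l2 were not analysed.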
